A study of Mus musculus with 48 samples.

Results

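Islr2, Islr and Stra6 lie next to each other on mouse chromosome 9, and their RNA was compared among 3 lines of mouse embryonic stem cells. Islr2 was chosen by its values in these lines, higher in dKO and lower in dCD than in WT, and Islr and Stra6 were chosen because they adjoin it. They are 3 of the 48321 rows of the deposited expression table. The series holds 48 samples, of which the 9 polyadenylated RNA-seq libraries were used and the rest were not analysed here. All 9 came from R1 cells, a male 129SV embryonic stem cell line, held in a naive pluripotent state by 2i medium (a MEK inhibitor and a GSK3 inhibitor) with LIF. WT cells were wild type (3 libraries), dKO cells had both Mll3 and Mll4 knocked out (3 libraries), and dCD cells carried catalytically deficient Mll3 and Mll4 (3 libraries). Mll3 (Kmt2c) and Mll4 (Kmt2d) are the main enzymes that place monomethylation on lysine 4 of histone H3 at enhancers, and the series asks which of their functions need that activity. Each genotype is represented by 1 line in the labels, which leave unsaid whether the libraries of a line came from separate cultures. A clone's own effect and its genotype's effect therefore cannot be told apart. The spread behind every p-value is that between libraries of 1 line, and it may be technical.

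Islr2, also called Linx, encodes a membrane protein with leucine-rich repeats and an immunoglobulin domain, best known from developing sensory and motor neurons, where it binds Trk and Ret receptor kinases and shapes axon growth. Islr, also called Meflin, encodes a smaller relative anchored to the cell surface and known from mesenchymal stromal cells. Stra6 encodes the membrane receptor that takes up retinol from retinol-binding protein, and its name records that retinoic acid stimulates it.

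In the GRCm38.p6 RefSeq annotation Stra6 is on the plus strand, and Islr and Islr2 follow it on the minus strand, so that Stra6 and Islr end towards each other and Islr and Islr2 are read in the same direction. The 250 bases before the first start site of each gene are shown because the genes sit side by side but did not all move alike. Capitals mark CG dinucleotides, the sites of DNA methylation. All 3 genes had an entry in the RefSeq promoter table (GRCm38.p6), with 3 starts for Islr2, 1 for Islr and 4 for Stra6.
Islr2, chr9:58204320-58204569, minus strand: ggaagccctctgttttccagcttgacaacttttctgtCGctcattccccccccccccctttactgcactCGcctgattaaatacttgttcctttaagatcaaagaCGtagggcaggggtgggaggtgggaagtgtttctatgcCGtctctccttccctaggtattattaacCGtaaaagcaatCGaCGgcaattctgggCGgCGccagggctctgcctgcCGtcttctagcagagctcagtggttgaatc
Islr, chr9:58158555-58158804, minus strand: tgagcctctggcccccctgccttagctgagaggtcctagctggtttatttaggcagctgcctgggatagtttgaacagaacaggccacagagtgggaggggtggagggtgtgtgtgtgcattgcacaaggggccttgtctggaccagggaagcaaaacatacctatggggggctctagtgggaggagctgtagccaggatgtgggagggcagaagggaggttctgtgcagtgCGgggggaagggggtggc
Stra6, chr9:58128838-58129087, plus strand: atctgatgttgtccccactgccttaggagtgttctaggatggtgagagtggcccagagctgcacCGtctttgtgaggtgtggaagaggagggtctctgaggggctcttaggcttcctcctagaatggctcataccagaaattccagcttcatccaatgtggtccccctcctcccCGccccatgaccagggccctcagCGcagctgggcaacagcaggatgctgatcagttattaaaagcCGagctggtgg
The Islr2 stretch holds 10 CG dinucleotides, the Stra6 stretch 4 and the Islr stretch 1. Over the 32851 promoters of 27025 genes in the table the median was 6, with quartiles of 2 and 16. The Islr2 stretch therefore had more CG dinucleotides than 62.2% of promoters. The Stra6 stretch had more than 37.8% and the Islr stretch more than 7.9%. These counts hold for the first start only. Before the other starts there were 3 and 11 CG dinucleotides for Islr2, and 9, 3 and 3 for Stra6. The order of Islr2 and Stra6 thus depends on the start taken. The GC box letters GGGCGG were searched on both strands, as were the others. They occurred 1 time in the Islr2 stretch, 1 time in that of Stra6 and 0 times in that of Islr. Before the other starts they occurred 1 time at start 2 and 2 times at start 4 of Stra6, and not elsewhere. Of all promoters, 32.7% held these letters. The CCAAT letters, found in 33.8% of promoters, occurred 1 time in the Stra6 stretch and not in the other two. The TATA box letters TATAAA (12.4% of promoters) occurred in none of the 8 windows of the 3 genes. The retinoic acid receptor half-site letters AGGTCA (14% of promoters) were not in these windows either. The pair of half-sites 5 bases apart, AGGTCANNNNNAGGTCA, was found in 0.00913% of promoters and not in these windows. These are matches of letters and not measured binding.

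The deposited values are in TPM, the usual unit of transcript abundance, which corrects for library depth and gene length, so that levels of different genes can be set side by side. Reads recovered from the TPM and the gene lengths came to 21090624 to 56249770 per library. As a check of the labels, Kmt2c had a mean of 21.1 TPM in WT, 7.66 in dKO and 27 in dCD. It was lower in dKO than in WT (log2 fold change -1.35, limma, Benjamini-Hochberg adjusted p 8.37e-09). Kmt2d had 66.4, 82.9 and 63.2 TPM and was higher in dKO (log2 fold change 0.32, limma adjusted p 0.00194). The edited stretch of each gene is not given in the labels, so reads outside it check nothing. All 12 embryonic stem cell markers were expressed, with a summed level of 16300 to 16800 TPM in WT, 8760 to 8850 in dKO and 12200 to 12600 in dCD, and 10 of the 12 (83.3%) were lower in each mutant line, against 28.4% of all tested genes in dKO and 29.5% in dCD. Most of the drop of the sum in dKO was Dppa5a, at 6430 TPM in WT, 1200 in dKO and 4910 in dCD. In dKO 3 of the 12 fell at least 2-fold. Pou5f1 and Nanog changed less (log2 fold change -0.22 and -0.37), and Klf4 was higher (0.76). Fold changes are differences of log2(TPM + 1). Genes with at least 1 TPM in at least 3 libraries were tested with limma (16179 genes), and "higher" and "lower" mean an adjusted p under 0.05. Both mutant lines were compared with the same 3 WT libraries. The median log2 fold change of all tested genes was 0.10 in dKO against WT, -0.01 in dCD against WT and 0.10 in dKO against dCD. Scaling each library by median ratios took 0.10 off the dKO values, against both WT and dCD, and did not move dCD against WT.

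Islr2 was at 19.5, 18.3 and 17.1 TPM in the WT libraries, with a mean of 18.3 ± 1.19 (SD, n = 3). In dKO it was at 161, 154 and 158 TPM, with a mean of 158 ± 3.89 (SD, n = 3). In dCD it was at 3.03, 2.93 and 2.94 TPM, with a mean of 2.96 ± 0.0534 (SD, n = 3). The 3 lines did not overlap: every dKO library was above every WT library, and every WT library above every dCD library. These levels rest on 538 to 1114 reads per library in WT, 6163 to 7495 in dKO and 140 to 246 in dCD. Summed over libraries, Islr2 had 27.4 RPM (reads scaled to library depth) in WT (exact Poisson 95% interval 26.3 to 28.6), 230 in dKO (227 to 233) and 4.41 in dCD (4.05 to 4.79). Such intervals cover counting error only, and reads without molecular identifiers are not independent molecules.

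**Figure D1:**
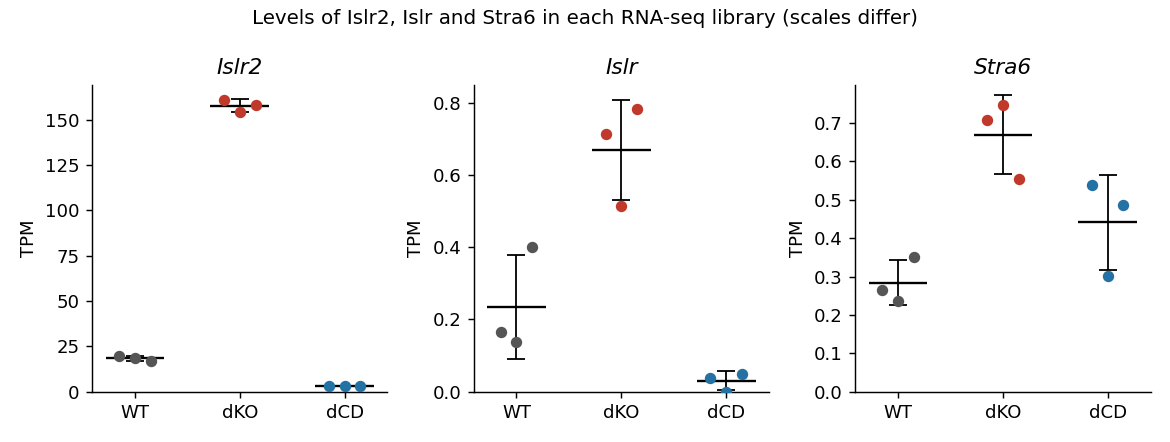
Level of Islr2, Islr and Stra6 in TPM (vertical axes, a separate scale for each gene) in each of the 9 libraries, by line. Points are libraries, the long bar is the mean of 3 and the whiskers are 1 SD; Islr2 runs from 17.1 to 19.5 TPM in WT, 154 to 161 in dKO and 2.93 to 3.03 in dCD, while Islr and Stra6 reach at most 0.783 and 0.746 TPM.

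The mean of Islr2 was 8.61 times as high in dKO as in WT, 6.18 times as high in WT as in dCD, and 53.2 times as high in dKO as in dCD. On the log2(TPM + 1) scale the changes were 3.04 in dKO against WT, -2.28 in dCD against WT and 5.32 between the mutant lines. They are given as a description, with no test, because they are the values by which Islr2 was chosen. Ranked among the 16179 tested genes, Islr2 had the 31st highest fold change in dKO against WT. It was the 12th lowest in dCD against WT and the 2nd highest in dKO against dCD. Within a library, Islr2 was above 54.4% to 56.8% of tested genes in WT. It was above 92% to 92.5% of them in dKO and above 24.5% to 25.1% in dCD. Islr2 was thus a gene of middling level in WT, among the more abundant in dKO and among the less abundant in dCD.

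Islr was close to the limit of detection in all 3 lines. It was at 0.164, 0.138 and 0.4 TPM in WT, at 0.713, 0.515 and 0.783 TPM in dKO, and at 0.0391, 0 and 0.0501 TPM in dCD. The lines did not overlap, and their order, dKO above WT above dCD, was that of Islr2. The reads behind these levels were few: 3, 4 and 6 in WT, 12 to 16 in dKO and 1, 0 and 2 in dCD, where a count of 0 allows up to 3 reads. With the 3 libraries of a line summed, Islr had 13 reads in WT, 41 in dKO and 3 in dCD. Scaled to depth, the dKO rate was 3.11 times the WT rate (exact 95% interval 1.63 to 6.32). The WT rate was 6.16 times the dCD rate (1.69 to 33.7), and the dKO rate was 19.1 times the dCD rate (6.11 to 96.6). In the WT mean of 18.3 TPM, Islr2 stood far above Islr at 0.234 ± 0.145 TPM (SD, n = 3).

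Stra6 was also low, and its order among the lines differed from that of Islr2. It was at 0.265, 0.237 and 0.35 TPM in WT, at 0.709, 0.746 and 0.553 TPM in dKO, and at 0.538, 0.301 and 0.485 TPM in dCD. Every dKO library was above every other library, while dCD and WT overlapped at 0.301 and 0.35 TPM. The means were 0.284 ± 0.0593 TPM in WT, 0.669 ± 0.102 in dKO and 0.441 ± 0.124 in dCD (SD, n = 3 each). Summed over libraries there were 42 reads in WT, 103 in dKO and 99 in dCD. The dKO rate was 2.42 times that of WT (exact 95% interval 1.67 to 3.55), the dCD rate 1.66 times that of WT (1.15 to 2.44), and the dKO rate 1.46 times that of dCD (1.09 to 1.94). Unlike Islr2 and Islr, Stra6 thus had a higher summed read rate in dCD than in WT.

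Neither Islr nor Stra6 reached the filter of 1 TPM, so 1 of the 3 genes was among the 16179 tested. Both were tested in the fit without a filter, over 31900 genes. Islr was higher in dKO than in WT (log2 fold change 0.44, limma adjusted p 0.00452) and higher in dKO than in dCD (0.69, limma adjusted p 0.000324). Its difference between dCD and WT was -0.26 with a limma adjusted p of 0.0722, and -2.34 with an adjusted p of 0.00299 when limma's voom was run on the recovered reads. Stra6 was higher in dKO than in WT (0.38, limma adjusted p 0.00644). Stra6 did not pass in dCD against WT (0.16, limma adjusted p 0.204) or in dKO against dCD (0.21, limma adjusted p 0.085). A fold change on the log2(TPM + 1) scale understates the change of genes this low. Voom, which scales with the reads, gave Islr 1.61 in dKO against WT and 3.95 in dKO against dCD, and gave Stra6 1.24 in dKO against WT, 0.67 in dCD against WT and 0.57 in dKO against dCD. A single-gene exact permutation test (two-sided) gave p = 0.1 for Islr in each of the 3 comparisons, the smallest value that 3 against 3 libraries allow. For Stra6 it gave exact p = 0.1, 0.2 and 0.1 in the same order. In the unfiltered fit 39.8% of all genes passed in dKO against WT, 31.3% in dCD against WT and 38.1% in dKO against dCD, so passing in these comparisons was common.

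In the reference, Islr2 overlaps the transcribed pseudogene 1600029O15Rik, and Stra6 overlaps Ccdc33. The strand setting of the counting is not given in the sources used here. Whether reads of overlapping genes were told apart is therefore not known. 1600029O15Rik was at 0.355, 0.448 and 0.347 TPM in WT, at 2.14, 1.51 and 2.23 TPM in dKO, and at 0.0509, 0.399 and 0.0977 TPM in dCD. It reached 1 TPM in the dKO libraries only and so passed the filter through the line where it was high. In the fit without a filter it was higher in dKO than in WT (log2 fold change 1.09, limma adjusted p 0.000196), and dCD overlapped WT (-0.24, limma adjusted p 0.259). Voom on the recovered reads gave it -1.53 in dCD against WT, with an adjusted p of 0.0145. It had 4 to 10 reads per WT library, against 538 to 1114 for Islr2. Ccdc33, which runs on the strand opposite to Stra6, was listed at 0 in all 3 dKO libraries, where Stra6 was highest, and at 0.0882 to 0.168 TPM in WT.

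The wider neighbourhood was described with the 12 genes on each side of the 3 genes, in reference order. Of these 24 genes, 16 were tested. On the Islr2 side, with 9 genes tested, 7 were higher and 2 lower in dKO than in WT. In dCD, 1 was higher and 5 were lower than in WT, and in dKO against dCD 7 were higher and 2 lower. 1600029O15Rik overlaps Islr2, and it is not known whether their reads were told apart. Without it, 6 of 8 were higher and 2 lower in dKO than in WT. In dCD 1 was higher and 5 lower, and in dKO against dCD 6 were higher and 2 lower. On the Stra6 side, with 7 genes tested, the counts were 3 higher and 2 lower in dKO, 2 higher and 2 lower in dCD, and 3 higher and 1 lower in dKO against dCD. The background over the whole table was 43.4% higher and 28.4% lower in dKO than in WT, 28.9% and 29.5% in dCD against WT, and 42.3% and 27% in dKO against dCD. Under median-ratio scaling the calls split evenly: 49.9% of those in dKO against WT were increases, in place of 60.4%, and 48.9% of those in dKO against dCD, in place of 61%. Under that scaling 8 in place of 10 of the 16 tested neighbours were higher in dKO than in WT. The median log2 fold changes on the Islr2 side were 0.62, -0.25 and 1.33 in the 3 comparisons, and on the Stra6 side 0.03, -0.03 and 0.13, against 0.10, -0.01 and 0.10 for all tested genes.

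Changes of at least 2-fold were few and were found on the Islr2 side. There 3 genes were at least 2-fold higher in dKO than in WT, 2 were at least 2-fold lower in dCD than in WT, and 6 were at least 2-fold higher in dKO than in dCD. Without 1600029O15Rik these counts were 2, 2 and 5. None of the 7 tested genes on the Stra6 side changed 2-fold in any of the 3 comparisons. In all tested genes such changes were made by 6.01% upward and 7.89% downward in dKO against WT, by 4.62% and 2.32% in dCD against WT, and by 3.6% and 7.36% in dKO against dCD. The difference between the sides was not tested.

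**Figure D2:**
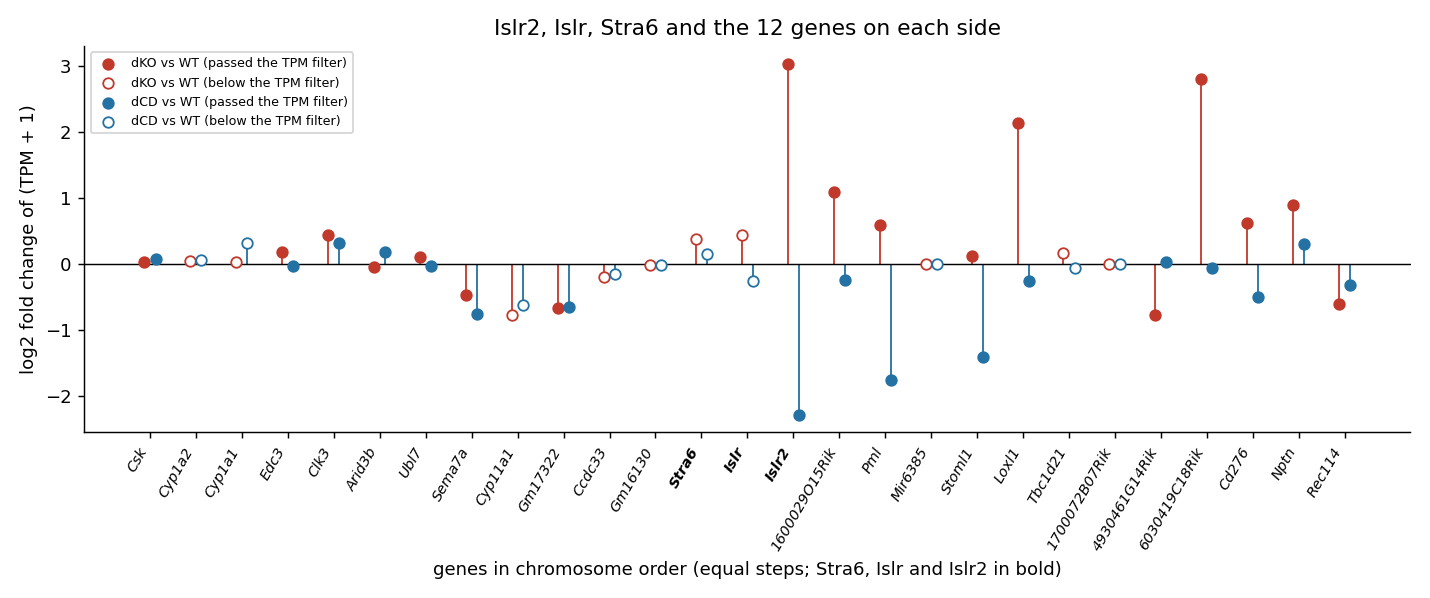
Difference of log2(TPM + 1) from WT (vertical axis) for Stra6, Islr, Islr2 and 12 genes on each side in chromosome order, at equal steps and not to scale. Red is dKO and blue is dCD; open circles are genes below the filter of 1 TPM; Islr2 has the longest lines in both directions, at 3.04 and -2.28, and the longer lines of other genes lie to its right.

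Pml, the next protein-coding gene after Islr2, encodes the organiser of the nuclear bodies named after it. It was at 206, 197 and 197 TPM in WT, at 303, 299 and 309 TPM in dKO, and at 60.2, 56.5 and 59.9 TPM in dCD, without overlap. It was higher in dKO (log2 fold change 0.60, limma adjusted p 3.34e-08) and lower in dCD (-1.75, limma adjusted p 7.57e-11), the order seen for Islr2. Stoml1, a membrane protein of the stomatin family read away from Pml, was at 81 to 88.6 TPM in WT, 92.1 to 93.1 in dKO and 30.8 to 31.5 in dCD. It fell in dCD (-1.41, limma adjusted p 3.56e-10). Its increase in dKO was 0.13 (limma adjusted p 0.00495) and did not pass under median-ratio scaling (0.02, adjusted p 0.566). Pml and Stoml1 were the 2 genes of the neighbourhood, Islr2 aside, that fell at least 2-fold in dCD.

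Loxl1, an enzyme that crosslinks elastic fibres, was at 3.5, 3.77 and 4.57 TPM in WT, 22.6, 20.3 and 19.3 TPM in dKO, and 3.09, 3.19 and 3.18 TPM in dCD. It rose in dKO (log2 fold change 2.14, limma adjusted p 5.28e-09). Its difference in dCD was small (-0.25, limma adjusted p 0.0291). That call was lost in the fit without a filter (adjusted p 0.0635), without WT replicate 3 (-0.16, adjusted p 0.0959), and without any 1 of the dCD libraries (adjusted p 0.0577 to 0.0718). 6030419C18Rik, named Insyn1 in the reference and encoding a protein of inhibitory synapses, was at 5.11, 5.91 and 5.95 TPM in WT, 45.5, 46.1 and 44.6 TPM in dKO, and 5.17, 5.02 and 5.92 TPM in dCD. It rose in dKO (2.80, limma adjusted p 1.43e-10), while dCD and WT overlapped (-0.06, limma adjusted p 0.446). In Loxl1 and 6030419C18Rik the dKO libraries stood apart, and dCD stayed near WT.

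Cd276, an immune checkpoint protein of the B7 family, was at 21.6 to 22 TPM in WT, 32.7 to 36.2 in dKO and 14.4 to 16.1 in dCD. It was higher in dKO (log2 fold change 0.62, limma adjusted p 1.43e-06) and lower in dCD (-0.50, limma adjusted p 1.25e-05). Like Pml, it had the order of Islr2 among the lines, at a smaller size. Stoml1 and Loxl1 also had this order without overlap. The call of Stoml1 in dKO and that of Loxl1 in dCD were lost under the alternatives given above. Nptn, a synaptic adhesion molecule, was higher in both mutant lines (0.90 and 0.31), and Rec114, a meiotic recombination factor, was lower in both (-0.60 and -0.32). The noncoding 4930461G14Rik was lower in dKO (-0.77) and did not pass in dCD (0.03). The genes beyond Islr2 thus did not all move as Islr2 did. Mir6385 and 1700072B07Rik were listed at 0 in all libraries, and Tbc1d21 had at most 3 reads in any library.

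**Figure D3:**
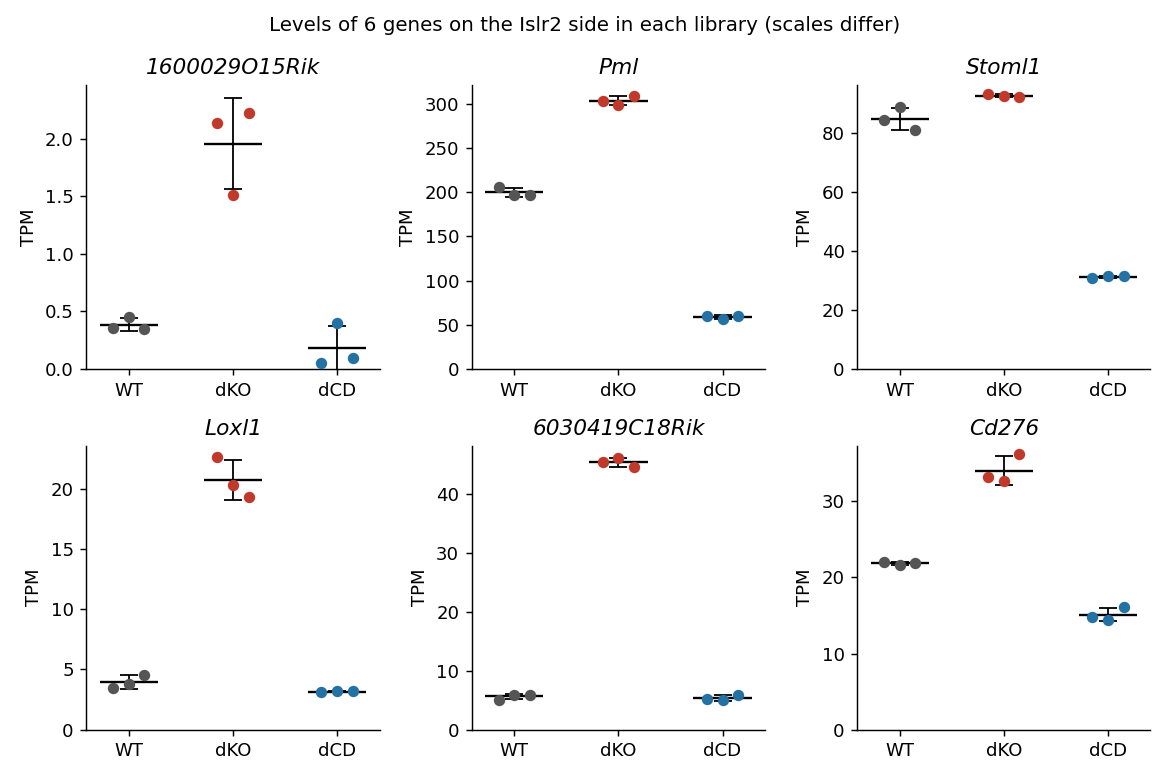
Level in TPM (vertical axes, a separate scale for each gene) of 6 genes beyond Islr2 in each of the 9 libraries, by line. Points are libraries, the long bar is the mean of 3 and the whiskers are 1 SD, cut at 0; Pml, Stoml1 and Cd276 are lowest in dCD, and Loxl1 and 6030419C18Rik stand out in dKO.

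On the Stra6 side, the nearest genes were lower in the mutant lines or barely detected. Gm16130 had 1 read in all. Gm17322, a pseudogene, was at 3.33 ± 0.31 TPM in WT, 1.74 ± 0.0914 in dKO and 1.76 ± 0.128 in dCD (SD, n = 3 each). It was lower in dKO (log2 fold change -0.66, limma adjusted p 4.72e-05) and in dCD (-0.65, limma adjusted p 8.71e-05). Cyp11a1, which starts steroid hormone synthesis from cholesterol, was below the filter, at 0.793 to 0.99 TPM in WT, 0.024 to 0.189 in dKO and 0.129 to 0.288 in dCD. Sema7a, a semaphorin held at the membrane by a lipid anchor, was lower in both (-0.47 and -0.75). Clk3, a kinase of splicing factors, was higher in both (0.45 and 0.32). Arid3b was higher in dCD (0.19), and Edc3 was higher in dKO (0.19). The increase of Ubl7 in dKO (0.11, limma adjusted p 0.00282) was lost under median-ratio scaling (0.01, adjusted p 0.816) and in voom (0.08, adjusted p 0.063). Stra6 was higher in dKO, whereas Gm17322 and Sema7a, on its other side from Islr, were lower.

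At least 2-fold higher in dKO and at least 2-fold lower in dCD than in WT were 15 tested genes, Islr2 included, or 0.0927% of all. The count was 43 with a pseudocount of 0.1 in place of 1 and 41 with voom on the recovered reads. Of the 15, 13 passed the adjusted p in both comparisons, and Islr2 had the largest dKO-to-dCD difference. A separate matter is the looser pattern of being called higher in dKO and lower in dCD at any size, which 1029 genes (6.36%) showed. None of the other 14 genes was placed on chromosome 9. The 6 that carry a gene name, ranked by the Pearson correlation of log2(TPM + 1) with Islr2 over the 9 libraries, were Notumos, Abca1, Adgrb1, Hopx, Notum and Rny1. These correlations are a description over libraries of 3 lines, and the pair of folds by which the genes were chosen makes them high.

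Notumos was closest (r = 0.9994), with mean levels of 7.14 TPM in WT, 38 in dKO and 1.27 in dCD. Notum, which encodes an enzyme that inactivates Wnt proteins by removing their lipid, had r = 0.9831 and levels of 44.1, 153 and 6.79 TPM. Notumos is named as the opposite-strand partner of Notum. Without a stated strand setting it is not known whether their reads were told apart. Abca1, the cholesterol exporter, had r = 0.9962 and levels of 7.91, 37.9 and 2.79 TPM. Adgrb1, an adhesion receptor also known as BAI1, had r = 0.9953 and levels of 11.8, 28.3 and 5.25 TPM. Hopx, a small homeodomain protein that does not bind DNA, had r = 0.9949 and levels of 3.92, 10 and 1.34 TPM. In these 5 genes no library of one line overlapped another line. Rny1, a Y RNA, had r = 0.9245 and was less even, at 6.52 to 12.6 TPM in WT, 19.9 to 26.5 in dKO and 1.65 to 6.45 in dCD.

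**Figure D4:**
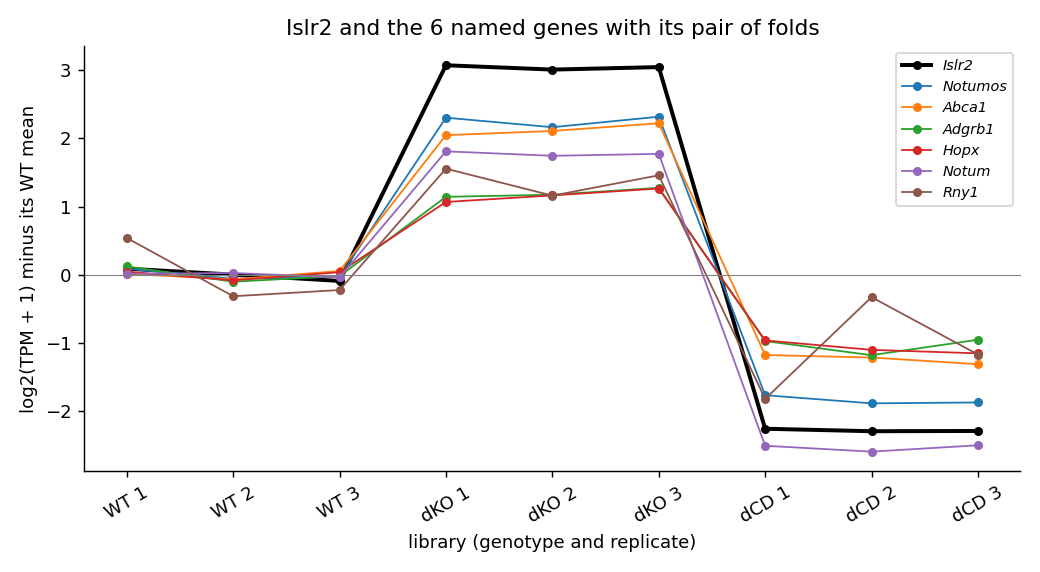
Difference of log2(TPM + 1) from the mean of the WT libraries (vertical axis) in each of the 9 libraries (horizontal axis) for Islr2 and the 6 named genes with the same pair of folds. Lines join the libraries of one gene only to guide the eye; Islr2, in black, reaches the highest values in dKO, and Notum the lowest in dCD.

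The other 8 were rows of short noncoding RNAs without a gene name, 116 to 191 bases long, with r of 0.8006 to 0.9650. Rows of this kind were then counted, a set chosen after its values were seen. Of 150 tested rows under 200 bases and annotated as snRNA, snoRNA, Y RNA or similar, 27 (18%) were higher and 8 (5.33%) lower in dKO than in WT, with a median log2 fold change of 0.32. In dCD 4 (2.67%) were higher and 22 (14.7%) lower, with a median of -0.19. Fewer of them were called than of all tested genes, of which 43.4% were higher and 28.4% lower in dKO and 28.9% and 29.5% in dCD. Their summed level was 830 to 938 TPM in WT, 1050 to 1520 in dKO and 593 to 661 in dCD. The libraries were made from polyadenylated RNA, which such RNAs mostly lack, and the part of this in the pattern of Rny1 and the 8 rows was not tested. Islr2, at 4933 bases, is not of this class.

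The protein family of Islr2 and Islr was followed through 46 other genes for cell-surface or secreted proteins with leucine-rich repeats. Of these, 25 were tested. In dKO 12 were higher and 8 lower than in WT (median log2 fold change 0.19), in dCD 8 were higher and 6 lower (median 0.11), and in dKO against dCD 11 were higher and 9 lower (median 0.15). These shares are near those of all tested genes given above. At least 2-fold, 2 were higher and 2 lower in dKO, and none changed in dCD.

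Slitrk5, a synaptic adhesion protein, came closest to Islr2 in its direction, at 1.44 to 1.95 TPM in WT, 8.25 to 8.42 in dKO and 0.944 to 1.12 in dCD. It was higher in dKO (log2 fold change 1.78, limma adjusted p 2.58e-08) and lower in dCD (-0.43, limma adjusted p 0.00159). Lrfn4, another synaptic adhesion protein, followed it with 32 to 35.5 TPM in WT, 55.2 to 57.8 in dKO and 23.5 to 24.4 in dCD (0.76 and -0.46, limma adjusted p 6.31e-08 and 6.46e-06). Lrtm2 went the other way in dKO, from 5.63 to 6.77 TPM in WT to at most 0.0739 TPM (-2.81, limma adjusted p 1.20e-09), and did not pass in dCD (0.10, limma adjusted p 0.357). Lrrn4 was lower in dKO (-0.69) and higher in dCD (0.97), the reverse of Islr2. Lrfn1 did the same at a smaller size (-0.68 and 0.17), and Lrrn2 was lower in both mutant lines (-0.37 and -0.58). Lingo3 was lower in dCD (-0.57, limma adjusted p 5.62e-05). Its increase in dKO (0.21, limma adjusted p 0.0205) did not pass under median-ratio scaling (0.12, adjusted p 0.168) or quantile normalization (0.15, adjusted p 0.0863), nor without WT replicate 3, dKO replicate 2 or dKO replicate 3 (adjusted p 0.0622 to 0.0781). Relatives of Islr2 thus did not all move in 1 direction.

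**Figure D5:**
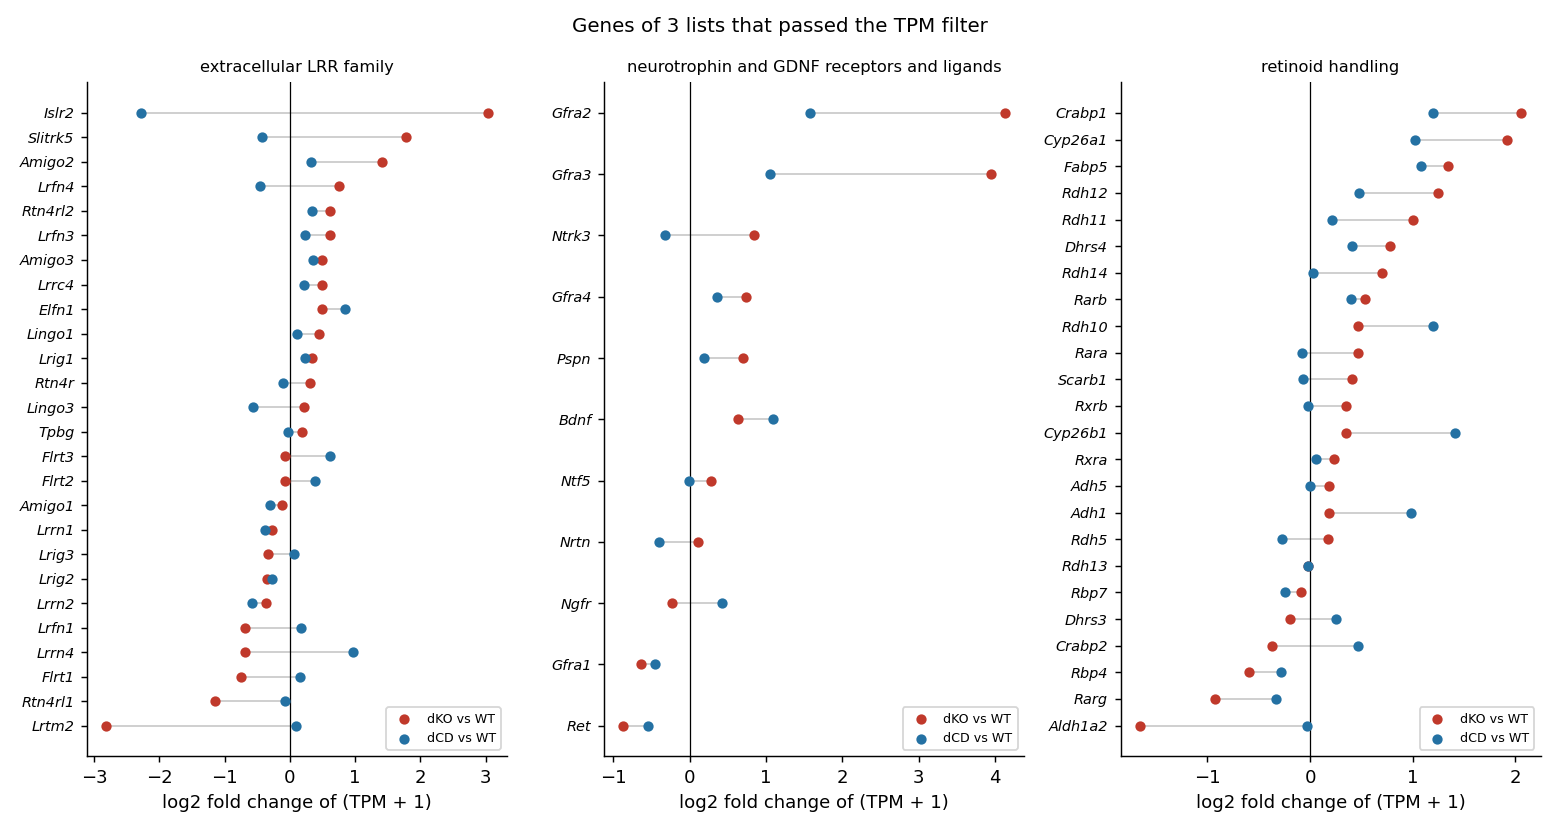
Difference of log2(TPM + 1) from WT (horizontal axes) for genes of 3 lists that passed the filter: proteins with extracellular leucine-rich repeats, neurotrophin and GDNF receptors and ligands, and retinoid handling. Red is dKO, blue is dCD, and a grey line joins the values of one gene; Islr2, at 3.04 and -2.28, has the widest span in its list, and most retinoid genes lie above 0 in dKO.

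The product of Islr2 is known to bind receptor kinases of the neurotrophin and GDNF systems, so these receptors, their co-receptors and ligands were listed (17 genes, 12 tested). In each of the 3 comparisons 6 (50%) were higher and 4 (33.3%) lower. Over all tested genes the shares were 43.4% and 28.4% in dKO against WT, 28.9% and 29.5% in dCD against WT, and 42.3% and 27% in dKO against dCD. The list's shares in dKO were near these. Without 2 genes that reached 1 TPM in 1 line only, 6 of 10 were higher and 2 lower in dCD than in WT. The medians were 0.46 in dKO against WT, 0.27 in dCD against WT and 0.33 in dKO against dCD. Gfra3 and Bdnf were below 1 TPM in every WT library and so passed the filter through the mutant lines. Among co-receptors, Gfra2, which binds neurturin, was at 1.59 to 1.93 TPM in WT, 44.6 to 49.1 in dKO and 6.62 to 7.53 in dCD. It was higher in both mutant lines (log2 fold change 4.13 and 1.58, limma adjusted p 1.09e-11 and 2.20e-08). Gfra3, which binds artemin, was at 0.315 to 0.452 TPM in WT, 19.5 to 20.9 in dKO and 1.66 to 2.04 in dCD, and was higher in both (3.95 and 1.05, limma adjusted p 4.33e-11 and 1.56e-06). Both co-receptors were highest in dKO, as was Islr2, but above WT in dCD, where Islr2 was below it.

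Among receptor kinases, Ntrk3, the receptor of neurotrophin 3, had the order of Islr2 at a low level, with 0.333 to 0.392 TPM in WT, 1.38 to 1.5 in dKO and 0.089 to 0.0916 in dCD. It reached 1 TPM in the dKO libraries only and so passed the filter through the line where it was high. Its log2 fold changes were 0.85 in dKO and -0.32 in dCD, with limma adjusted p 3.06e-05 and 0.0227, and 4.38e-06 and 0.00321 in the fit without a filter. The call in dCD was lost without WT replicate 1 (adjusted p 0.061) or WT replicate 2 (0.0526), and in limma on the WT and dCD libraries alone (0.056). Ret, the signalling receptor of GDNF ligands, was lower in both lines, from 1.75 to 2.11 TPM in WT to 0.508 to 0.745 in dKO and 0.916 to 1.12 in dCD (-0.87 and -0.54, limma adjusted p 3.00e-05 and 0.0014). Ngfr, the shared neurotrophin receptor, was lower in dKO (-0.23) and higher in dCD (0.43). Of the ligands, Bdnf was higher in both lines (0.64 and 1.09), and Nrtn was lower in dCD (-0.40) with 0.11 in dKO (limma adjusted p 0.0699, and 0.0104 in limma on the WT and dKO libraries alone and 0.00754 without dCD replicate 3).

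Stra6 belongs to the handling of retinol and retinoic acid, followed through 45 other genes with a row, of which 25 were tested. In dKO 15 (60%) were higher and 5 (20%) lower than in WT, with a median log2 fold change of 0.35, against 43.4% and 28.4% of all tested genes. At least 2-fold, 5 (20%) were higher and 2 (8%) lower, against 6.01% and 7.89%. In dCD 13 (52%) were higher and 1 (4%) lower, with a median of 0.21, against 28.9% and 29.5%. At least 2-fold, 5 (20%) were higher and 0 lower, against 4.62% and 2.32%. Between dKO and dCD 13 (52%) were higher and 8 (32%) lower (median 0.17), against 42.3% and 27%. Adh1 and Cyp26b1 reached 1 TPM in dCD only. Without them 11 of 23 were higher in dCD than in WT, 4 at least 2-fold, with a median of 0.06. Rdh12 was below 1 TPM in every WT library and so passed the filter through the mutant lines, which favours calls of higher. It was called higher in dKO (1.25) and in dCD (0.48), and is among the 5 at least 2-fold higher in dKO. Among the genes for clearing or binding retinoic acid, Crabp1, a carrier of retinoic acid in the cytoplasm, was at 29 to 32.9 TPM in WT, 125 to 139 in dKO and 66.7 to 81.6 in dCD (2.06 and 1.20, limma adjusted p 2.20e-09 and 2.89e-07). Cyp26a1, which degrades retinoic acid, was at 0.64 to 1.06 TPM in WT, 5.52 to 6.34 in dKO and 2.6 to 2.93 in dCD (1.92 and 1.02, limma adjusted p 3.63e-08 and 9.52e-06). Fabp5, a carrier that can bring retinoic acid to a nuclear receptor, was higher in both lines (1.34 and 1.08). In these 3 genes the dKO libraries were highest and WT lowest, as in the read rates of Stra6. Others of this kind differed. Crabp2, another carrier of retinoic acid, was at 14.1 TPM in WT, 10.7 in dKO and 20 in dCD. It was lower in dKO (-0.37, limma adjusted p 7.95e-05) and higher in dCD (0.47, limma adjusted p 2.03e-05). Cyp26b1 was highest in dCD, at 1.97 to 2.4 TPM.

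Genes for making retinoic acid and for its receptors moved in both directions. Aldh1a2, which makes retinoic acid, was lower in dKO (-1.66, limma adjusted p 8.12e-09) and did not pass in dCD (-0.03, limma adjusted p 0.73). Rdh10, which makes retinal from retinol, was higher in both (0.47 and 1.20), as were Dhrs4 (0.78 and 0.41) and Rdh11 (limma adjusted p 9.58e-08 and 0.0114), dehydrogenases or reductases of retinoids. Rarg, a retinoic acid receptor, was lower in both (-0.93 and -0.33, limma adjusted p 3.40e-09 and 2.04e-05), and Cyp26b1, which also degrades retinoic acid, was higher in both (0.35 and 1.41). The call of Cyp26b1 in dKO was lost without WT replicate 1 (adjusted p 0.0659), dKO replicate 2 (0.0504) or dKO replicate 3 (0.0834). Lrat, which stores retinol taken up through Stra6 as an ester, was below the filter at 0.233 TPM in WT, 0.053 in dKO and 0.187 in dCD.

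Markers of other cell types were counted as well, against 43.4% higher and 28.4% lower among all tested genes in dKO and 28.9% and 29.5% in dCD. In bulk RNA, fewer cells of a type and less RNA per cell cannot be told apart. The 14 neuron markers, of interest because Islr2 is a neuronal gene, summed to 475 to 493 TPM in WT, 328 to 339 in dKO and 324 to 336 in dCD. Of the 11 tested, 2 (18.2%) were higher and 6 (54.5%) lower in dKO, and 2 (18.2%) were higher and 5 (45.5%) lower in dCD. Rbfox3 reached 1 TPM in WT only and so passed the filter through the line where it was high. Without it, 2 of 10 were higher and 5 lower in dKO, and 2 were higher and 4 lower in dCD. Tubb3 (185 TPM in WT, 85.9 in dKO and 201 in dCD) and Stmn2 (201, 210 and 91.2 TPM) made up most of the sum. The 2 that were higher in dKO were Map2, at 1.17 TPM in WT, 3.43 in dKO and 1.34 in dCD, and Elavl4, at 1.08, 2.45 and 1.13 TPM. The 6 that were lower in dKO were Tubb3, Nefm, Nefl, Rbfox3, Neurog1 and Neurod1. Nefm (38.5 TPM in WT, 4.19 in dKO and 8.65 in dCD) and Nefl (36.9, 10.3 and 12.2 TPM) had the largest falls in dKO. The markers Dcx, Snap25 and Syt1 were below 1 TPM in every library, with Syt1 at 0.144 TPM in WT, 0.541 in dKO and 0.406 in dCD. The part of neuron-like cells in the levels of Islr2 was not tested. The 14 fibroblast and mesenchyme markers, of interest because Islr is a mesenchymal gene, summed to 28.1 to 30.9 TPM in WT, 223 to 244 in dKO and 998 to 1080 in dCD. Of the 8 tested, 6 (75%) were higher and 1 (12.5%) lower in dKO, and 8 (100%) were higher in dCD. Col1a1, Col1a2, Col3a1 and Acta2 were below 1 TPM in every WT library and so passed the filter through the mutant lines, which favours calls of higher. Pdgfra, Dcn, Lum, Twist2, Prrx1 and Postn were below 1 TPM in every library, and most of the sum was Acta2 (100 TPM in dKO, 520 in dCD) and Tagln (70.7 and 468 TPM). The part of such cells in the levels of Islr was not tested.

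The 12 endoderm markers summed to 183 to 186 TPM in WT, 98.6 to 101 in dKO and 338 to 353 in dCD, with Afp, Cubn and Pdgfra below 1 TPM in every library. Most of that sum was Col4a1 (102 TPM in WT, 51.3 in dKO and 285 in dCD) and Lama1 (70.9, 27.3 and 29.1 TPM). Of the 9 endoderm markers tested, 4 (44.4%) were higher and 2 (22.2%) lower in dKO, and 5 (55.6%) were higher and 1 (11.1%) lower in dCD. Sox17 reached 1 TPM in dCD only. Without it, 4 of 8 were higher and 2 lower in dKO, and 4 were higher and 1 lower in dCD. Foxa2 and Dab2 were below 1 TPM in every WT library and so passed the filter through the mutant lines. The 11 trophoblast markers summed to 112 to 122 TPM in WT, 133 to 138 in dKO and 605 to 642 in dCD, with Tpbpa at 0 and Elf5 below 1 TPM in every library. Krt18 (15 TPM in WT, 50.6 in dKO and 311 in dCD) and Krt8 (21.9, 40.5 and 205 TPM) made up most of the sum in dCD. Of the 9 trophoblast markers tested, 4 (44.4%) were higher and 3 (33.3%) lower in dKO, and 6 (66.7%) were higher and 1 (11.1%) lower in dCD. Cdx2 and Hand1 were below 1 TPM in every WT library and so passed the filter through the mutant lines. The part of these cell types in the levels of Islr2, Islr and Stra6 was not tested.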

How the data were processed

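RNA-seq libraries (3 each of WT, dKO and dCD, grouped by their titles) were read from 1 table of 48321 genes, for which the authors deposited TPM and a gene length. Processing used HISAT2, featureCounts and DESeq2 in unstated roles, on build mm9, per the submitters' processing notes. Annotation, strandedness and handling of multi-mapping reads: not given in the sources used here. TPM times length fell on whole multiples of 1 step per library (100% of values within 0.01 of a whole number), which gave the reads.

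Genes reaching 1 TPM in 3 or more libraries were tested on log2(TPM + 1) with limma 3.58.1 (lmFit, eBayes with a trend; R 4.3.3), with all 9 libraries in 1 fit, two-sided, Benjamini-Hochberg adjusted over 16179 genes, threshold 0.05. Islr and Stra6 fell below that filter, which the planned test had not foreseen. They were tested in the planned fit without a filter, and voom without a filter was added after seeing the data. The script was tested on simulated data.

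Gene order, overlaps and promoters came from RefSeq tables of GRCm38.p6, matched by symbol. Named by rule were the 3 genes, Kmt2c, Kmt2d, the neighbours, up to 4 called genes per list and comparison by p-value, and genes with the same pair of folds. Cyp26a1, Cyp26b1, Rdh10, Rdh12, Lrat, Bdnf, Adh1 and the cell type markers fall outside the rule and were named after their values were seen. Counts without genes that reached 1 TPM in 1 line only were also added then. The 3 genes and the lists were chosen with earlier results of these data known, and no pattern already seen is offered as independent support. List counts leave out Islr2, Islr and Stra6; they include some genes that are not reported here by name. Alternatives covered the pseudocount, filter, scaling, voom, the libraries in the fit and each library left out. Tables were made with Python 3.11.15 and pandas 2.3.3.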

Additional observations from a re-analysis of the deposited data

How the results depend on the processing

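No direction of Islr2, Islr or Stra6 reversed under the alternatives tried. The size of low values depended on the pseudocount. With 0.1 in place of 1, Islr2 was at -2.59 in dCD against WT and 5.69 in dKO against dCD. Islr was then at 1.27, -1.30 and 2.58 in dKO against WT, dCD against WT and dKO against dCD, and Stra6 at 1.01, 0.48 and 0.53. With voom on the recovered reads, Islr2 was at -2.63 and 5.70 in the last 2 of these comparisons. Voom without a filter gave Islr 1.61, -2.34 and 3.95, and Stra6 1.24, 0.67 and 0.57. Median-ratio scaling gave Islr2 2.94 in dKO against WT and 5.23 in dKO against dCD. The 15 genes that share the pair of folds became 43 with the pseudocount of 0.1 and 41 with voom, and 10 to 17 with 1 library left out. In the fit without a filter, the increase of Islr in dKO over WT passed with any 1 of the WT or dKO libraries left out (adjusted p 0.00102 to 0.0224), and so did that of Stra6 (0.00661 to 0.025).

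The replicate number as a replicate block called 11533 genes in dKO against WT, 9273 in dCD against WT and 11114 in dKO against dCD, in place of 11617, 9453 and 11220. Same-numbered libraries of different lines did not deviate together over all tested genes (r of -0.049 to 0.042 over 9 pairs, none over 0.1). Such a correlation cannot exclude a shared step that moved few genes, and the labels do not say what the number stands for. With the replicate block and no filter, Islr passed in dCD against WT (adjusted p 0.0372), and with the replicate block Loxl1 did not (adjusted p 0.0513).

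Among list counts, 11 leucine-rich repeat genes higher in dKO than in dCD became 6 under median-ratio scaling, and 12 higher in dKO than in WT became 7 with a minimum of 5 TPM. With that minimum, 6 neurotrophin and GDNF genes higher in each mutant line than in WT became 3, and 4 lower became 1. The 1 retinoid gene lower in dCD became 2 with quantile normalization and 2 without WT replicate 2. Depth limits Islr and Stra6, which had at most 16 and 48 reads in any library.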

Other observations

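Of the 15 genes at least 2-fold higher in dKO and at least 2-fold lower in dCD than in WT, 13 could be placed on a chromosome. The next tested gene on each side was looked up. Of the 13, 2 had a next gene with the full pair of folds. In all, 4 had a next gene called higher in dKO and lower in dCD at any size, and the rest had none. Over all tested genes 6.36% were called in this way. Gm24265 and Gm24407 are short noncoding rows next to each other on chromosome 5, and both have the full pair of folds. Beside Notum, Pycr1 had log2 fold changes of 0.28 in dKO and -0.55 in dCD. Beside Abca1, Nipsnap3b had 0.09 and -0.29. Under median-ratio scaling neither passed in dKO against WT (limma, 0.17 with adjusted p 0.0542 for Pycr1, and -0.01 with adjusted p 0.759 for Nipsnap3b). The tested genes next to Islr2 were Gm17322 (-0.66 and -0.65) and 1600029O15Rik (1.09 and -0.24), and neither was called in both directions. These genes were singled out after their values were seen.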
